A study of Mus musculus with 10 samples.

Results

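The genes described here are 34 genes of the response to low oxygen that lie outside glycolysis: 30 target genes of the hypoxia-inducible factors (HIFs) and 4 genes of the HIF machinery itself, *Hif1a*, *Epas1*, *Arnt* and *Vhl*. They were taken by symbol from a list of known HIF genes, which was chosen with earlier results of these data known. Each symbol was found on 1 row of the count tables, 34 of 55401 gene rows in all. All 34 were among the 15821 genes that passed the filter on low counts. Bulk RNA sequencing covered 10 subcutaneous B16F10 tumors, 5 of them formed by *Mir25* knockout (KO) cells and the other 5 by cells with a non-targeting control (NTC), each in female C57BL/6J mice and each collected on day 15. B16F10 is a mouse melanoma cell line that is poorly immunogenic, and *Mir25* is the gene of the microRNA miR-25. All mice, KO and NTC alike, received Comb, which joins GVAX (irradiated B16 cells that secrete GM-CSF, given on days 1 and 4) with an antibody against PD-1 at 10 mg/kg on days 6, 9 and 12, so the comparison concerns the tumor cells within treated mice and no untreated tumor entered it. The KO lines were made with CRISPR-Cas9 and several guide RNAs, and which line or clone grew each tumor is not given in the sources used here.

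HIF is a pair of proteins, an oxygen-labile α subunit (encoded by *Hif1a* or *Epas1*) and its stable partner ARNT. With oxygen present, prolyl hydroxylases of the EGLN family mark the α subunit and the ubiquitin ligase subunit VHL sends it to the proteasome, so that the amount of active HIF is set largely at the level of protein and is not read from the *Hif1a* transcript. In low oxygen the pair binds a short core motif in promoters and enhancers and raises genes of blood vessel growth, acid handling, mitochondrial turnover, collagen modification and growth control, a program well known from solid tumors such as melanoma.

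The question was whether these genes differed between KO and NTC tumors. No member passed the test (edgeR's quasi-likelihood test, Benjamini-Hochberg adjusted p under 0.05 and an absolute log2 fold change above 1). The median log2 fold change of the 34 members was -0.38, beside 0.01 over all 15821 genes tested, and 26 of the 34 had a value below 0 (all genes 48.7%). The lowest values belonged to *Ndrg1*, a stress-responsive gene of growth control, at 0.437-fold, *Vegfa*, the main growth factor of blood vessels, at 0.531-fold, *Higd1a*, a small protein of the mitochondrial inner membrane, at 0.536-fold, and *Bnip3*, a mitophagy receptor, at 0.583-fold of the NTC level. The subunit genes *Hif1a* and *Arnt* lay near the same level in both groups.

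At an unadjusted p under 0.05, 15 of the 34 members were lower in KO tumors and 1 was higher, where 4.85% of all genes tested were lower and 3.99% were higher by the same rule. Leaving out single tumors gave 8 to 18 lower members, beside 3.57% to 8.1% of all genes, the 8 being found without NTC replicate 4 (all genes 3.62%) and the 18 without KO replicate 4 (all genes 5.86%). Called genes were few over the whole table as well, 2 lower (0.0126%) and 1 higher (0.00632%), none of them a member. DESeq2, run on the same 10 tumors, gave an adjusted p under 0.05 to 4 members (*Vegfa*, *Bnip3*, *P4ha2* and *Ndrg1*), as to 1.47% of all genes tested, and called 1 of them, *Ndrg1*. It called 72 genes lower (0.455%) and 24 higher (0.152%) over the whole table. In 4 members (*Vegfa*, *Fam162a*, *P4ha2* and *Ndrg1*) every KO tumor lay below every NTC tumor, which was so for 1.47% of all genes tested. In no member did every KO tumor lie above every NTC tumor, against 0.866% of all genes.

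NTC replicate 1 stood apart from the other 9 libraries. It held 11896643 counts on genes against 23243707 to 28682130. Of its total count, 42.9% was assigned to no feature by the counting, against 17.5% to 28.2%. Its melanoma cell score, the mean log2 CPM (counts scaled to library size) of 8 pigment cell genes, was 9.83 against 10.0 to 10.7. For the main counts and many of the members, values are therefore also given over the 9 tumors without it, that is, 5 KO tumors against NTC replicates 2 to 5. Over 9 tumors the median of the members was -0.41 (all genes -0.02), and 23 were below 0 (all genes 51.9%). At an unadjusted p under 0.05, 17 were lower and 3 higher (all genes 8.1% and 12%), and again none was called by edgeR (all genes 0.0933% lower and 0.0124% higher). The 15 members that were lower over 10 tumors were lower by this measure over 9 tumors as well. KO values lay below all of NTC replicates 2 to 5 in 6 members, with *Car9* and *Higd1a* added (all genes 3.59%), and above them in 2, *Epas1* and *Vldlr* (all genes 2.71%). DESeq2 over 9 tumors, a choice made after the data were seen, called 5 members, *Higd1a* and *Ndrg1* as lower (110 of all 16078 genes, 0.684%) and *Epas1*, *Pfkfb4* and *Vldlr* as higher (526 genes, 3.27%). The row of *Mir25* itself held 0 counts in all 10 libraries, KO and NTC alike, so these counts do not check the knockout.

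**Figure D1:**
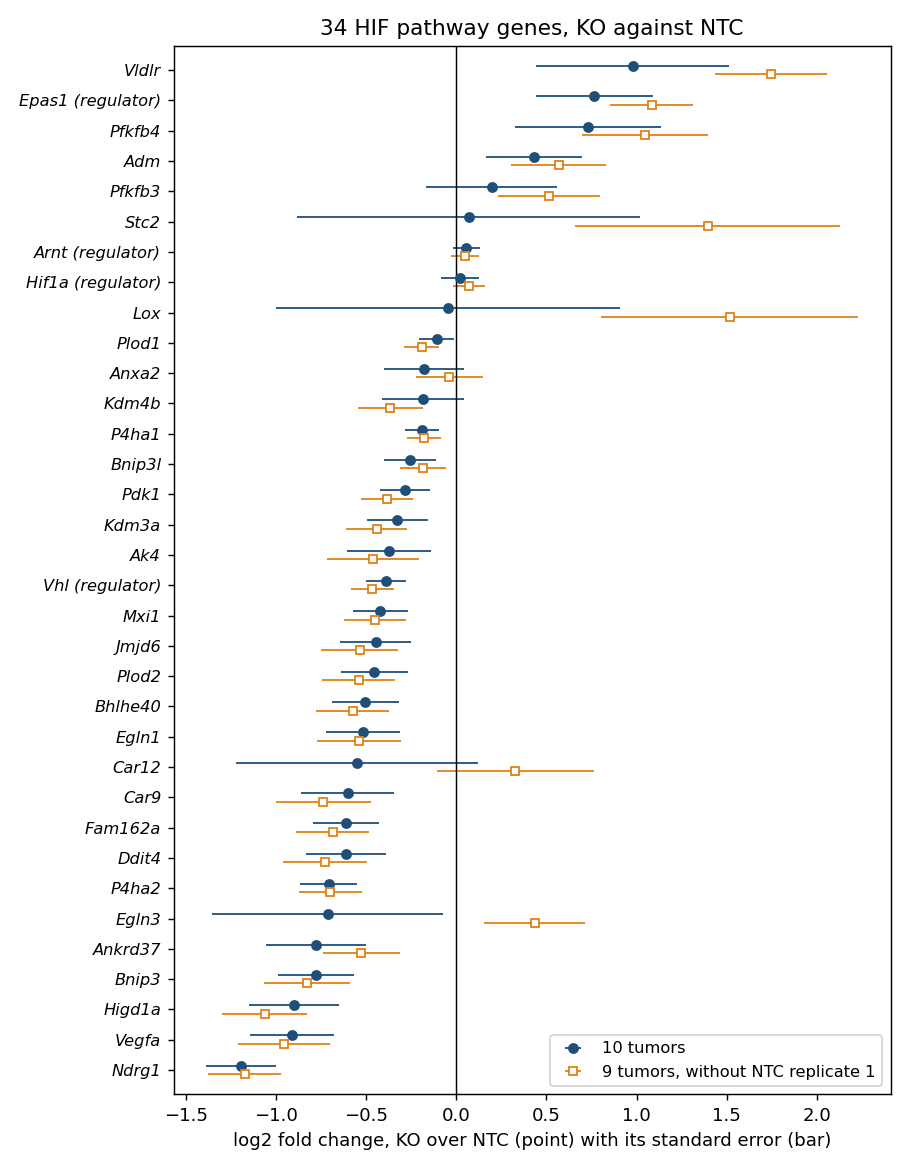
Log2 fold change of KO over NTC (x axis) for each of the 34 genes (y axis, ordered by the value over 10 tumors), with bars for the standard error, over all 10 tumors (filled circles) and over 9 tumors without NTC replicate 1 (open squares). Most targets lie to the left of 0 in both, from *Ndrg1* at -1.19 upward, while *Lox*, *Egln3*, *Stc2* and *Car12* move far to the right when NTC replicate 1 is left out.

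Values in single tumors are given below as CPM, scaled by TMM factors and listed in the order of replicates 1 to 5, and gene positions are those of GENCODE M21 on GRCm38, the assembly also called mm10. In a bulk sample, fewer cells of a type and less RNA per cell cannot be told apart, and this holds for each level below. The range of levels among the members was wide. Per kilobase of exon, mean levels ran from 0.0916 CPM for *Car12* and 0.116 for *Stc2*, both close to the limit of detection, to 125 for *Bnip3* and 128 for *Fam162a*, with *Anxa2* at 124, *Car9* at 77.1 and *Hif1a* at 74.4. Between *Fam162a*, *Bnip3* and *Anxa2* the order is not resolved, because their ranges over tumors (63.7 to 176, 59.6 to 195 and 79.4 to 194) cover each other.

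Among the genes of the HIF machinery, *Hif1a* (chr12:73901375-73947530) read 428, 409, 445, 411 and 516 CPM in KO tumors and 533, 416, 405, 413 and 411 in NTC tumors. KO replicate 5 and NTC replicate 1 were the 2 high tumors and the other 8 lay close together, so the log2 fold change was 0.02 ± 0.11 (SE, n = 5 per group; edgeR adjusted p = 0.963). *Arnt*, the shared partner, read 65.1, 59.1, 60.5, 67.0 and 65.7 in KO and 65.5, 56.1, 58.0, 61.8 and 63.9 in NTC tumors, with a log2 fold change of 0.06 ± 0.07 and overlapping groups.

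*Epas1* (chr17:86753700-86833410), which encodes HIF-2α and is known from endothelial cells and macrophages, read 35.8, 28.4, 22.0, 19.9 and 31.5 CPM in KO tumors and 31.0, 7.45, 13.4, 14.4 and 15.5 in NTC tumors. All KO tumors lay above NTC replicates 2 to 5, and NTC replicate 1 lay among the KO values. The log2 fold change was 0.77 ± 0.33 (edgeR adjusted p = 0.525) over 10 tumors and 1.08 ± 0.23 (edgeR adjusted p = 0.102) over 9. Across the 10 tumors, *Epas1* had an r of 0.833 with the leukocyte score (the mean log2 CPM of 10 pan-leukocyte genes). Group means of the macrophage and endothelial scores were 7.97 and 4.32 in KO and 6.79 and 4.01 in NTC tumors (6.27 and 3.76 in NTC replicates 2 to 5), and their part in the *Epas1* values was not tested.

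*Vhl* (chr6:113623959-113631633) read 44.0, 49.6, 50.5, 59.7 and 43.3 CPM in KO tumors against 56.7, 71.9, 64.7, 70.7 and 59.5 in NTC tumors. Only KO replicate 4 reached into the NTC range. The log2 fold change was -0.39 ± 0.11 (edgeR adjusted p = 0.278) and -0.46 ± 0.12 over 9 tumors. Of the oxygen sensors that act upstream of VHL and are themselves HIF targets, *Egln1*, the main prolyl hydroxylase, had a log2 fold change of -0.52 ± 0.21 (edgeR adjusted p = 0.503). *Egln3* read 10.5, 3.80, 5.32, 7.93 and 7.96 CPM in KO tumors and 38.9, 4.10, 5.39, 5.49 and 5.59 in NTC tumors. NTC replicate 1 alone set its direction, which was -0.71 ± 0.64 with that tumor and 0.43 ± 0.28 without it on the log2 scale.

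*Vegfa* (chr17:46016993-46032369) read 131, 78.8, 108, 155 and 81.2 CPM in KO tumors (mean 110.7 ± 32.6, SD, n = 5) and 201, 196, 178, 310 and 157 in NTC tumors (mean 208.4 ± 59.5). The highest KO tumor, replicate 4, ended just under the lowest NTC tumor, replicate 5, and NTC replicate 4 was the highest of all. The log2 fold change was -0.91 ± 0.23 (edgeR adjusted p = 0.235; DESeq2 adjusted p = 0.022). The other vascular target, *Adm*, which encodes the vasodilator peptide adrenomedullin, pointed the other way, with a log2 fold change of 0.43 ± 0.27 and overlapping groups.

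*Car9* (chr4:43506966-43513729), a carbonic anhydrase of the cell surface that exports acid and is a common marker of hypoxic tumor areas, read 172, 106, 179, 175 and 73.4 CPM in KO and 149, 249, 204, 273 and 196 in NTC tumors. KO replicates 2 and 5 were low, and without NTC replicate 1 the groups did not overlap. Its log2 fold change was -0.60 ± 0.26 (edgeR adjusted p = 0.528) and -0.74 ± 0.26 over 9 tumors. The related *Car12* was barely detected, at 0.438 to 0.623 CPM in KO and 0.139 to 2.69 in NTC tumors, with a log2 fold change of -0.55 ± 0.67 over 10 tumors and 0.33 ± 0.43 over 9.

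The 4 members that act on mitochondria all had log2 fold changes below 0, with a median of -0.69. *Bnip3* (chr7:138890836-138909519) read 189, 180, 237, 301 and 135 CPM in KO tumors and 337, 410, 313, 443 and 283 in NTC tumors. Only KO replicate 4 and NTC replicate 5 crossed, and the log2 fold change was -0.78 ± 0.21 (edgeR adjusted p = 0.254; DESeq2 adjusted p = 0.0436).

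*Higd1a* (chr9:121848563-121858362) read 83.1, 97.9, 114, 133 and 62.0 CPM in KO and 111, 235, 163, 246 and 158 in NTC tumors. NTC replicate 1 was the one NTC tumor within the KO range. The log2 fold change was -0.90 ± 0.25 (edgeR adjusted p = 0.278) and -1.06 ± 0.24 without that tumor (edgeR adjusted p = 0.109).

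*Fam162a* (chr16:36043761-36071594), a mitochondrial protein linked to cell death in hypoxia, read 84.6, 76.1, 110, 107 and 54.2 CPM in KO and 115, 149, 136, 144 and 115 in NTC tumors, so that the groups were close but did not overlap. Its log2 fold change was -0.61 ± 0.18 (edgeR adjusted p = 0.307). *Bnip3l*, the paralog of *Bnip3* that also serves mitophagy, had the smallest value of this class, -0.26 ± 0.14.

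All 5 collagen-modifying enzymes had values below 0 over 10 tumors, with a median of -0.19, and differed in size. *P4ha2* (chr11:54100095-54131665), a subunit of collagen prolyl 4-hydroxylase, read 45.8, 32.5, 46.5, 49.1 and 34.9 CPM in KO tumors and 75.6, 65.1, 63.9, 84.9 and 51.6 in NTC tumors. The groups did not overlap, and the log2 fold change was -0.71 ± 0.16 (edgeR adjusted p = 0.185; DESeq2 adjusted p = 0.00996). The paralogous subunit *P4ha1* had a value of -0.19 ± 0.10 and the lysyl hydroxylases *Plod1* and *Plod2*, which prepare collagen for cross-linking, -0.11 ± 0.10 (-0.19 over 9 tumors) and -0.45 ± 0.19 (edgeR adjusted p = 0.506 for *Plod2*).

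*Lox*, the lysyl oxidase that cross-links collagen and is made largely by fibroblasts, varied more than any other member of this class, at 77.3, 28, 35.4, 31.3 and 96.7 CPM in KO and 208, 1.87, 38.0, 9.31 and 24.4 in NTC tumors. For *Lox* the log2 fold change was -0.05 ± 0.95 with all tumors and 1.52 ± 0.71 over 9. The fibroblast score (mean log2 CPM of 7 genes) had the same high and low tumors, 8.26 in NTC replicate 1, 2.21 in NTC replicate 2 and 3.63 in NTC replicate 4. Its part in the *Lox* values was not tested.

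The JmjC enzymes are oxygen-dependent hydroxylases and demethylases that HIF induces. *Kdm3a* and *Kdm4b*, demethylases of histone lysines, had log2 fold changes of -0.33 ± 0.17 and -0.18 ± 0.23 (-0.44 and -0.37 over 9 tumors), and *Jmjd6* had -0.45 ± 0.20 (edgeR adjusted p = 0.547).

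The 5 members of growth and transcription control were all lower at an unadjusted p under 0.05 (all genes 4.85%), with a median log2 fold change of -0.61. *Ndrg1* (chr15:66929318-66969640) had the smallest p of all members and ranked 15 of 15821 genes. It read 64.2, 54.0, 51.0, 72.4 and 67.4 CPM in KO tumors (mean 61.8 ± 9.04) and 163, 146, 101, 195 and 103 in NTC tumors (mean 141.5 ± 39.9). The KO tumors lay close together and the NTC tumors spread over a wide range above them. The log2 fold change was -1.19 ± 0.19 (edgeR adjusted p = 0.0822), and -1.17 ± 0.20 over 9 tumors (edgeR adjusted p = 0.0613). By DESeq2 its adjusted p was 1.57e-05. Leaving out single tumors moved the value between -1.30 and -1.05.

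*Ddit4*, which restrains mTORC1 in stress, read 33.7, 29.3, 46.1, 57.2 and 28.8 CPM in KO and 44.6, 67.7, 62.3, 75.6 and 48.2 in NTC tumors. *Mxi1*, an antagonist of MYC, read 46.2, 39.5, 43.6, 59.3 and 39.2 against 61.4, 62.2, 57.8, 76.9 and 46.6. *Ankrd37*, a small ankyrin repeat protein, read 5.74, 4.94, 6.57, 7.93 and 5.47 against 18.3, 7.62, 9.43, 11.1 and 6.52. In all 3 genes KO replicate 4 was the highest KO tumor and crossed into the NTC range. Their log2 fold changes were -0.61 ± 0.22, -0.42 ± 0.15 and -0.78 ± 0.28, with edgeR adjusted p of 0.437, 0.434 and 0.427. *Bhlhe40*, a repressor of the circadian and hypoxic programs, had -0.50 ± 0.19 (edgeR adjusted p = 0.452).

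**Figure D2:**
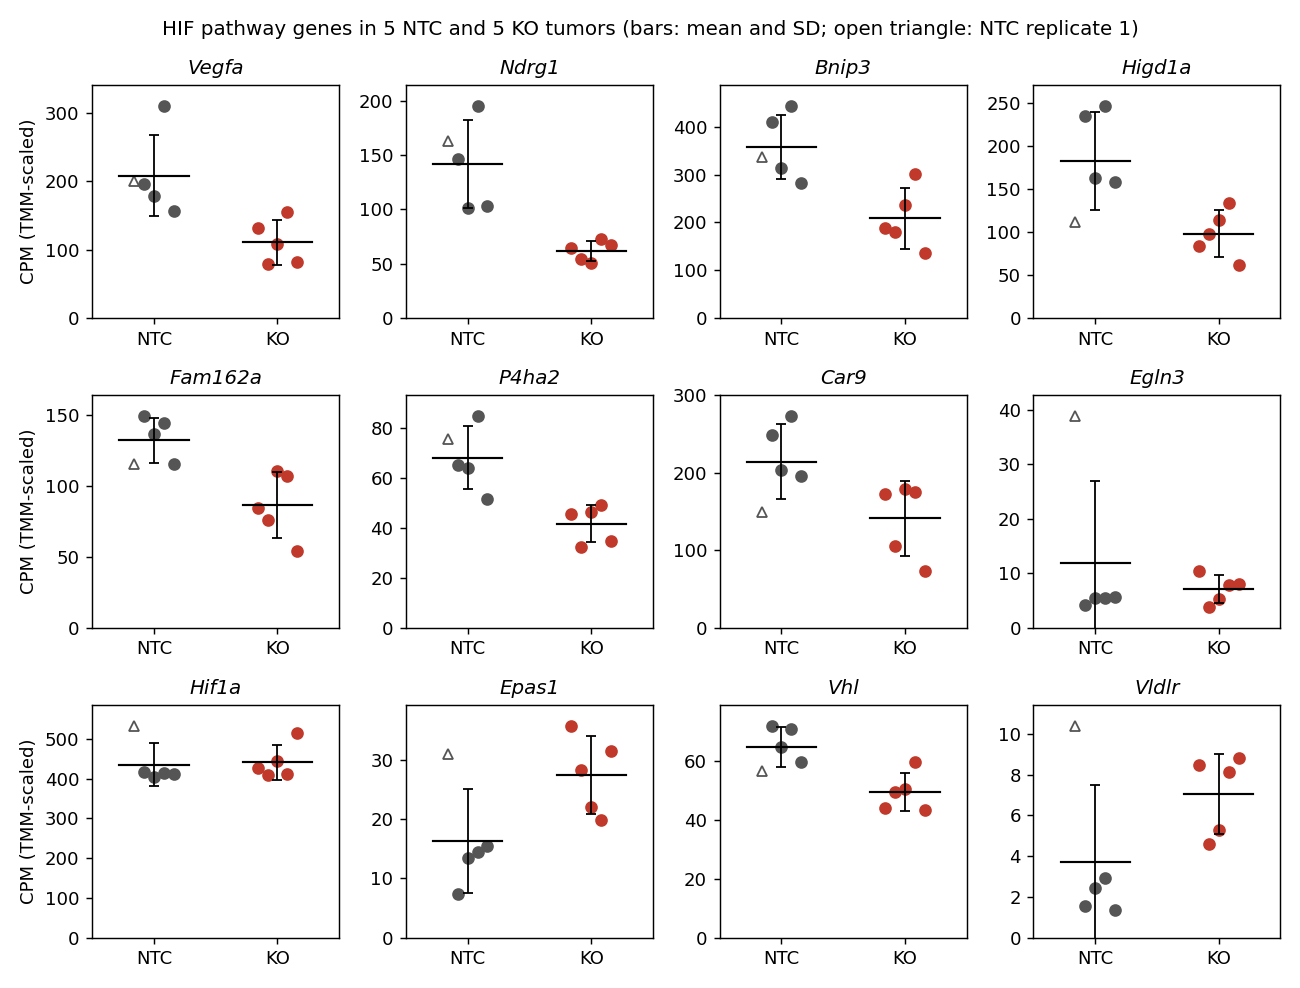
CPM (TMM-scaled, y axis from 0) of 12 members in each NTC tumor (gray) and KO tumor (red), with the mean and SD as bars and NTC replicate 1 as an open triangle. KO tumors sit below all NTC tumors for *Vegfa*, *Ndrg1*, *Fam162a* and *P4ha2*, and for *Epas1* and *Vldlr* they sit above NTC replicates 2 to 5, with NTC replicate 1 among the KO tumors for *Epas1* and above them for *Vldlr*.

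Of the 5 metabolic members, 2 had log2 fold changes below 0 and 3 above, none at an unadjusted p under 0.05 over 10 tumors. Over 9 tumors 1 was lower and 2 were higher by that rule (all genes 8.1% and 12%). The kinase gene *Pdk1*, which keeps pyruvate from the mitochondria, and *Ak4*, a mitochondrial adenylate kinase, had log2 fold changes of -0.28 ± 0.14 and -0.37 ± 0.23 (-0.39 and -0.46 over 9 tumors). *Pfkfb3* and *Pfkfb4*, which set the level of a small activator of phosphofructokinase, had 0.20 ± 0.36 and 0.73 ± 0.41. Over 9 tumors the value was 0.51 ± 0.28 for *Pfkfb3*, and for *Pfkfb4* it was 1.05 ± 0.35 (edgeR adjusted p = 0.183).

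*Vldlr*, a lipoprotein receptor that HIF is known to induce, read 8.49, 4.60, 5.29, 8.15 and 8.81 CPM in KO tumors and 10.4, 1.54, 2.43, 2.93 and 1.35 in NTC tumors. All KO tumors lay above NTC replicates 2 to 5 and under NTC replicate 1. For *Vldlr* the log2 fold change was 0.98 ± 0.54 (edgeR adjusted p = 0.635) with all tumors and 1.74 ± 0.31 over 9 (edgeR adjusted p = 0.0644; DESeq2 adjusted p = 1.05e-05). Of the remaining targets, *Anxa2*, a membrane-binding annexin, had -0.18 ± 0.22 (-0.04 over 9 tumors), and *Stc2*, a secreted glycoprotein with 0.0328 to 2.42 CPM, had 0.07 ± 0.95 (1.39 over 9 tumors).

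Taking each tumor as a whole, the HIF target score (mean log2 CPM over the 30 targets) was 5.64, 5.36, 5.61, 5.75 and 5.44 in KO tumors and 6.24, 5.55, 5.78, 5.88 and 5.54 in NTC tumors. The means were 5.56 ± 0.157 and 5.80 ± 0.287 (SD, n = 5 each), a difference of -0.24, and the groups overlapped. As a median over the targets the difference was -0.60. Against NTC replicates 2 to 5 the difference was -0.13. After the melanoma cell score of the same tumor was subtracted, the difference was -0.14 over 10 tumors and 0.13 over 9, so that its sign turned. A score that gives each gene the same spread over the tumors, the mean z score, was -0.265, -0.702, -0.178, 0.161 and -0.807 in KO and 0.690, 0.194, 0.330, 0.726 and -0.150 in NTC tumors, a difference of -0.72 between the means. KO replicates 2 and 5 were lowest, and KO replicate 4 and NTC replicate 5 were the tumors that crossed. The score over *Hif1a*, *Epas1*, *Arnt* and *Vhl* differed by 0.14 in the other direction, and by 0.22 against NTC replicates 2 to 5, but by -0.17 as a median over the 4 genes. It averages *Epas1* (log2 fold change 0.77) with *Vhl* (-0.39), whose product acts against HIF, and with *Hif1a* (0.02) and *Arnt* (0.06).

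By class, the per-tumor score of the mitochondrial targets differed by -0.65 between the group means (KO 6.39 to 7.26, NTC 7.24 to 7.79) and that of growth and transcription genes by -0.68 (KO 5.02 to 5.70, NTC 5.58 to 6.35). In each class only the KO replicate 4 and NTC replicate 5 values crossed. Against NTC replicates 2 to 5 these differences were -0.68 and -0.65. The other class scores differed by -0.37 for the oxygen sensors, -0.37 for the carbonic anhydrases, -0.32 for the JmjC enzymes, -0.24 for the vascular targets, -0.05 for the collagen enzymes and 0.31 for the metabolic members. Without NTC replicate 1 they were -0.08, -0.16, -0.44, -0.17, 0.11 and 0.48 in the same order, so that the collagen score changed sign.

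**Figure D3:**
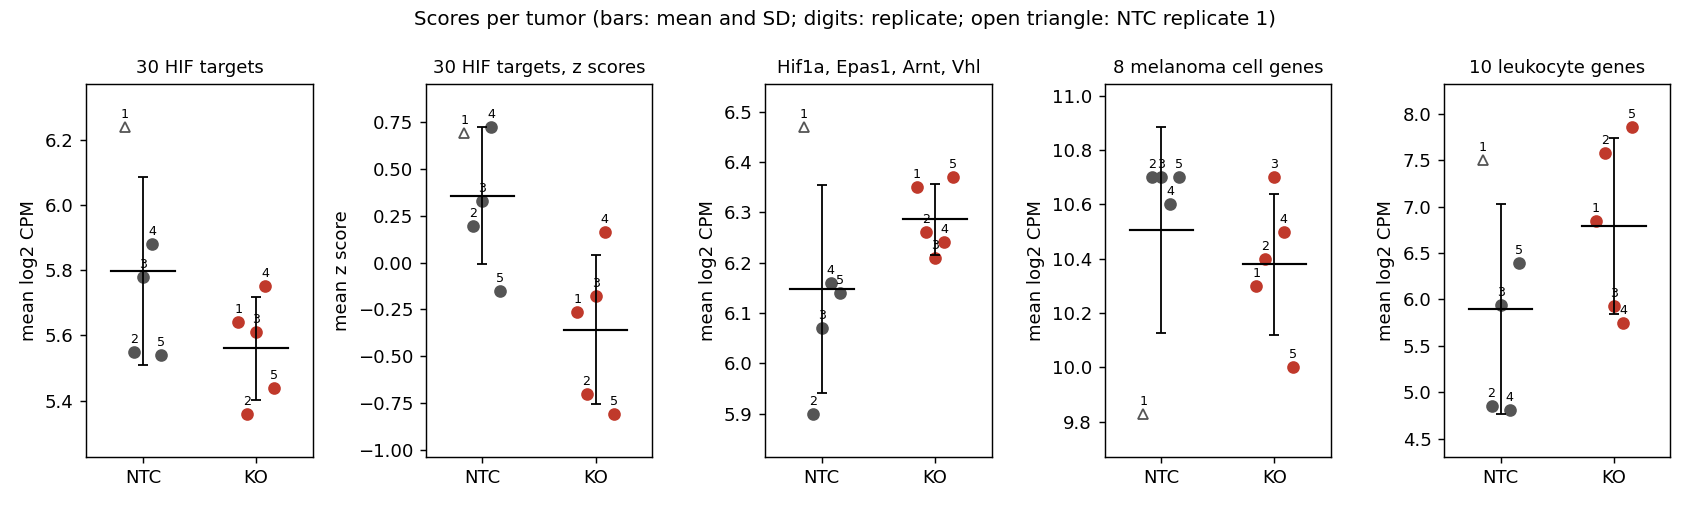
Scores per tumor (points numbered by replicate, bars for the mean and SD, NTC replicate 1 as an open triangle): mean log2 CPM of 30 HIF targets, mean z score of the same targets, and mean log2 CPM of 4 HIF machinery genes, 8 melanoma cell genes and 10 leukocyte genes. The target scores of the groups overlap, KO replicates 2 and 5 have the lowest target scores, and these 2 KO tumors have the highest leukocyte scores of their group, 7.58 and 7.86.

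The 34 genes did not move as a single block. Among the 30 targets the median r over the 435 pairs was 0.367 (10 tumors, log2 CPM, the genes sharing libraries and normalization), and 12 of the 30 had an r above 0.5 with the mean of the other 29. The closest to that mean was *Ankrd37* (r = 0.955). *Plod1*, *Kdm4b* and *Pfkfb4* had an r below 0. Without NTC replicate 1, 17 targets had an r above 0.5 and 6 an r below 0, and *Plod1* (0.326) and *Kdm4b* (0.704) were no longer among the latter. There, *Kdm3a* (r = 0.863) and *Mxi1* (0.804) followed the other targets closely, while *Pfkfb3* (-0.698) and *Pfkfb4* (-0.775) went against them. Of the 15 members that were lower at an unadjusted p under 0.05, the lowest of all 10 tumors was KO replicate 5 in 10 members and KO replicate 2 in 4, and the highest was NTC replicate 4 in 12.

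**Figure D4:**
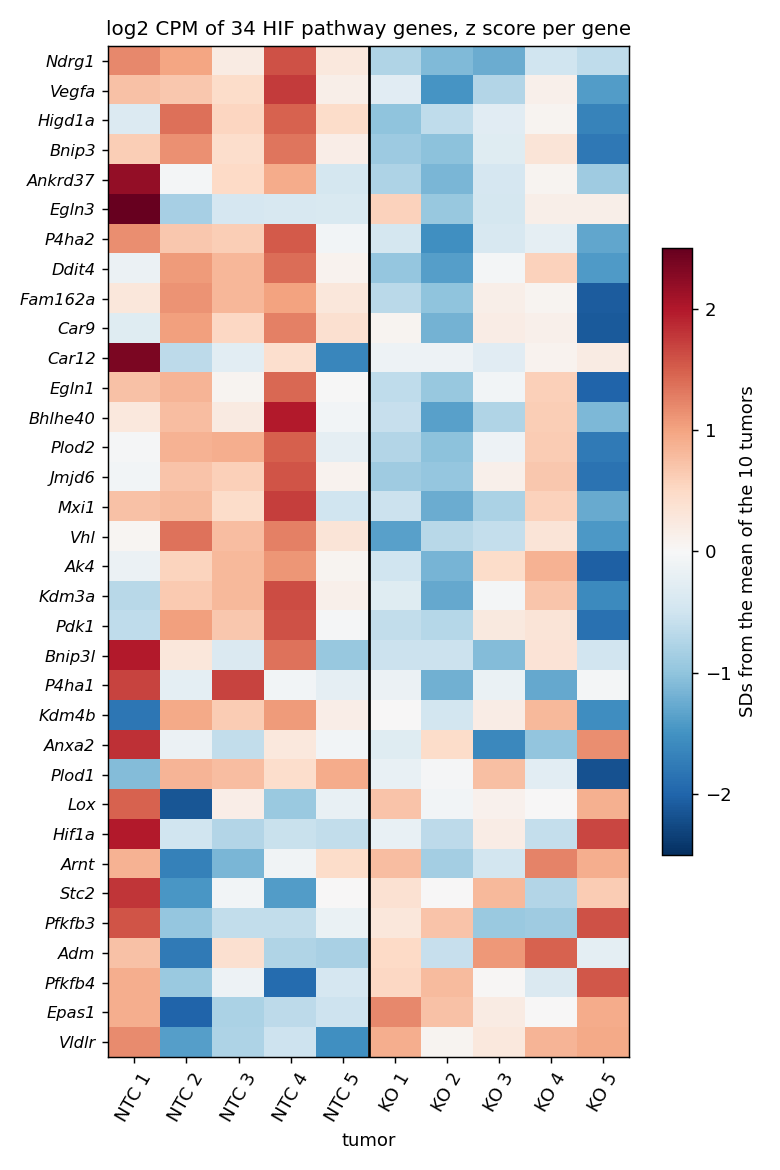
Log2 CPM of the 34 members (rows, ordered by log2 fold change) in the 10 tumors (columns), as SDs from the mean of each gene over the tumors, from blue (low) to red (high). Most of the upper rows are blue in KO replicates 2 and 5 and red in NTC replicate 4, and NTC replicate 1 is the highest tumor for *Egln3*, *Car12*, *Bnip3l*, *Hif1a* and *Stc2*.

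Markers of other cell types moved with these values. The leukocyte score was 6.84, 7.58, 5.93, 5.75 and 7.86 in KO tumors and 7.50, 4.85, 5.94, 4.81 and 6.39 in NTC tumors, and all 10 marker genes were detected in every tumor, with a summed level of 831 to 3310 CPM in KO and 523 to 2640 CPM in NTC tumors. Across the 10 tumors, 18 members had an r below -0.5 with this score, from *Pdk1* (-0.948) and *Kdm3a* (-0.932) onward, and 8 had an r above 0.5, led by *Pfkfb4* (0.939), *Pfkfb3* (0.898) and *Epas1* (0.833). For *Ndrg1* r was -0.456, and -0.732 without NTC replicate 1. For *Ankrd37* it was -0.205 and -0.841. Over these 9 tumors 21 members had an r below -0.5 and 7 an r above 0.5. The share of all genes past the same r was not counted, so these counts do not set the members apart from other genes. The points share library and depth, and the scores of both kinds are parts of the same total. The KO means of the fibroblast and erythrocyte scores also lay above those of NTC tumors, by 1.56 and 1.73 (2.30 and 2.07 against NTC replicates 2 to 5), with summed levels of 926 to 5370 and 250 to 1610 CPM in KO and 57.7 to 6050 and 74.9 to 427 CPM in NTC tumors. Summed skeletal muscle genes lay at 1.51 to 181 CPM in KO (34.3 in replicate 3 and 181 in replicate 4) and 0.694 to 2.69 CPM in NTC tumors, and summed keratinocyte genes at 0.089 to 20 CPM (20 in replicate 3 and 7.5 in replicate 4) and 0 to 1.48 CPM, with 4 of 6 and 5 of 5 of these genes at 0 in at least 1 tumor. The part of these cell types in the values of the members was not tested.

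With the leukocyte score as a covariate in the fit, 14 of the 34 members were lower at an unadjusted p under 0.05, beside 6.49% of all genes. Of the 15 members that were lower without the covariate, 12 stayed lower by this rule and 14 had values closer to 0. These 15 were chosen by their p in the same tumors, and genes outside the members chosen in that way were not counted. The counts among the 15 therefore have no reference over all genes. *Higd1a* went to -0.52 and *Car9* to -0.28, whereas *Ndrg1* was -1.14 (edgeR adjusted p = 0.0516) and *Vegfa* -0.71. *Epas1* went to 0.47, *Pfkfb4* to 0.22, *Kdm3a* to -0.10, *Pdk1* to -0.09 and *Ak4* to -0.12. *Plod2* went to -0.23 and *Jmjd6* to -0.21. Away from 0, *Anxa2* went to -0.46, and *Kdm4b* (0.16), *Pfkfb3* (-0.32), *Hif1a* (-0.0613) and *Stc2* (-0.11) changed sign. With the melanoma cell score as the covariate, *Ndrg1* was -1.23 and was the 1 member called by edgeR, in a fit that called 22 genes lower (0.139%) and 2 higher (0.0126%) over the whole table. The melanoma cell score itself differed by -0.10 between the group means (-0.26 against NTC replicates 2 to 5), with all 8 genes detected in every tumor at a summed level of 14800 to 23500 CPM in KO and 13700 to 25200 CPM in NTC tumors.

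Other genes of the pathway, taken from fixed lists, gave the following counts. Of 11 further genes of oxygen sensing and HIF control, 9 were tested (*Hif3a* and *Arnt2* were under the filter), none was lower at an unadjusted p under 0.05, and 1 was higher, *Hif1an*, the asparagine hydroxylase that blocks HIF's coactivator, with a log2 fold change of 0.26 ± 0.08 (edgeR adjusted p = 0.334). Over 9 tumors the counts were again 0 and 1. Of 20 other hypoxia-induced genes, 5 were lower and 0 were higher (all genes 4.85% and 3.99%). These were *Ero1l*, an oxidase of the endoplasmic reticulum (-1.07 ± 0.27), *Pgf*, a relative of *Vegfa* (-1.07 ± 0.27), *Insig2* (-0.48 ± 0.17), *Rora* (-0.47 ± 0.14) and the vessel ligand *Angpt2* (-0.22 ± 0.09). Over 9 tumors this list had 5 lower and 7 higher genes (all genes 8.1% and 12%), and its median turned from -0.22 to 0.47. None of these genes was called.

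The glycolytic genes, the other branch of the HIF response, had a median of -0.36, close to that of the members, and 15 of 16 were below 0. At an unadjusted p under 0.05, 9 of them were lower (*Slc2a1*, *Hk1*, *Hk2*, *Gpi1*, *Pfkp*, *Aldoa*, *Tpi1*, *Pkm* and *Slc16a3*), beside 4.85% of all genes. *Pfkp* had the smallest p of these, with -0.66 ± 0.09 (edgeR adjusted p = 0.0589), and over 9 tumors its adjusted p was 0.0146 at a log2 fold change of -0.75, short of the fold threshold. Over 9 tumors the list had a median of -0.46, with 16 of 16 below 0 and 12 lower (all genes 51.9% and 8.1%).

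The genes outside the members with the highest r to the HIF target score over the 10 tumors were *Gm10524*, *Zfp781*, *Gm48865*, *Cacfd1*, *Ddah1*, *Dmtn*, *Cyp26a1*, *Trim9*, *Gm10925* and *2610005L07Rik*, with r from 0.912 to 0.949. Without NTC replicate 1 their r lay between 0.768 and 0.871, and none of these 10 was among the 10 genes with the highest r over those 9 tumors, so the ranking depends on that library.

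Promoters were examined because HIF binds the core motifs ACGTG and GCGTG. RefSeq promoter windows on GRCm38.p6 (250 bases before to 50 after a transcript start) were at hand for 27 of the 34 members, and not for *Bnip3l*, *Epas1*, *Lox*, *Plod2*, *Ndrg1*, *Kdm4b* and *Bhlhe40*. Searched on both strands, 24 of the 27 (88.9%) held at least 1 of these motifs in any of their windows, beside 46.7% of 27025 genes, and 17 (63%) held ACGTG, beside 21.8%. The 27025 genes were all those with a window, tested here or not, and the members had been listed as known HIF genes. The palindrome CACGTG holds ACGTG on both strands. Of members without a motif, *Vhl*, *Vldlr* and *Car12* had none in any window, and the window at the main start of *Vegfa* had none either. The 5 stretches below come from members named above for their lower values in KO tumors, with the motif letters in capitals on the strand of the gene (CACGT and CACGC are the same motifs read on the opposite strand). They lie upstream of or across the transcript start of *Bnip3* (chr7:138909527-138909636, minus strand), *P4ha2* (chr11:54100804-54100948, plus), *Fam162a* (chr16:36071567-36071656, minus), *Car9* (chr4:43506966-43507035, plus) and *Higd1a* (chr9:121857747-121857881, minus).
Bnip3: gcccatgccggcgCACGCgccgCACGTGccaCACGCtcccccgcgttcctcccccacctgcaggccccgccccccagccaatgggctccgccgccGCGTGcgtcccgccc
P4ha2: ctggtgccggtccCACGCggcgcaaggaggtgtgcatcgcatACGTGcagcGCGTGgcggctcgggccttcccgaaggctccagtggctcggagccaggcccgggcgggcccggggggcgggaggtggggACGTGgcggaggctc
Fam162a: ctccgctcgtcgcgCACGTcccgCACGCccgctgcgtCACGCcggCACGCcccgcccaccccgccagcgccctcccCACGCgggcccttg
Car9: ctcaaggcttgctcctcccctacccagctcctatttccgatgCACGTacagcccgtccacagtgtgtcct
Higd1a: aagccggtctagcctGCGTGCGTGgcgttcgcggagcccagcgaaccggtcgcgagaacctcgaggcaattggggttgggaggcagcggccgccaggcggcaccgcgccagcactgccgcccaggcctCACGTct
In *Bnip3* the ACGTG motifs of both strands overlap in CACGTG, and in *Higd1a* a pair of GCGTG motifs share a G. A match describes the letters of the window and does not show that HIF bound there in these tumors.

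Because the groups differ in *Mir25*, the members were also searched for its seed. The mature miR-25-3p, encoded at chr5:138165332-138165353 on the minus strand (RefSeq, GRCm38.p6), is shown with bases 2 to 8, the seed, in capitals, beside miR-92a-3p, which has the same seed and is encoded elsewhere.
miR-25-3p: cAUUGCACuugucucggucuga
miR-92a-3p: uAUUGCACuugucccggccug
Of the 34 members, 4 had a match to the whole seed in an annotated 3′ UTR (*Adm*, *Ak4*, *Egln3* and *Lox*), which is 11.8%, beside 8.17% of 12863 tested genes with an annotated 3′ UTR. The site in *Egln3* began only 8 bases after the stop codon. With the matched letters in capitals, the sites lay at chr7:110629443-110629472 (*Adm*, plus strand), chr4:101465694-101465723 (*Ak4*, plus) and chr12:54180601-54180630 (*Egln3*, minus).
Adm: acctagcgaggaacGTGCAATgcttgttgt
Ak4: gtgtcttgacaaagGTGCAATggaagcagc
Egln3: agactgactgtggtGTGCAATccgctggcc
The log2 fold changes of these 4 genes were 0.43, -0.37, -0.71 and -0.05 in this order over 10 tumors, and 0.57, -0.46, 0.43 and 1.52 over 9. None of the 4 had an unadjusted p under 0.05 in either fit. The members with the lowest values in KO tumors, *Ndrg1*, *Vegfa*, *Higd1a* and *Bnip3*, held no such match.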

How the data were processed

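Reads were trimmed, aligned to mm10 and counted by the authors (the submitters' processing notes name FastQC, Trimmomatic, HISAT2 and HTSeq), and the deposited values are raw counts per gene symbol without normalization. The annotation and the strand setting of the counting are not given in the sources used here, so reads of a member and of an antisense or overlapping gene (annotated for *Hif1a*, *Ndrg1*, *Bnip3* and others) cannot be told apart. The 5 summary rows were left out, and 107 symbols on more than 1 row, none of them a member, were kept apart.

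The main test was edgeR 4.0.16 (R 4.3.3; quasi-likelihood, two-sided, TMM, filterByExpr, Benjamini-Hochberg over all genes tested), which was tested on simulated data. A gene was called at an adjusted p under 0.05 and an absolute log2 fold change above 1. A standard error is the size of the log2 fold change divided by the root of F. DESeq2 1.42.0 was an alternative. Logarithms of CPM used a prior count of 2. SDs of means come from how far the 5 tumors of a group differ. The p-values and the standard errors of fold changes rest on that spread, drawn toward a trend over all genes tested. They measure no other variation. Totals on genes were 23243707 to 27006075 in KO and 11896643 to 28682130 in NTC libraries. Groups and replicate numbers came from the labels. Alternatives were RLE, other filters, a replicate block, robust dispersion, leukocyte and melanoma covariates, other scores, and each tumor left out. The members, lists and tests were chosen with earlier results of these data known. All 34 members were named with their fold changes, and values in every tumor were given for 8 genes chosen by role, the 10 members with the smallest p and those without overlap, with *Lox* and *Vldlr* added after their values were seen. Tables and figures used Python 3.11.15, pandas 2.3.3 and matplotlib 3.10.9.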

Additional observations from a re-analysis of the deposited data

Results flagged for a closer look

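Within each group of 5 tumors, the highest or lowest tumor was compared with the others by its gap to the nearest one, over 104 sets of values (34 members, the scores and 3 library measures in each group). A gap as wide as those below arises by chance in about 1 in 20 such sets. It was found in 8 sets, and in each of them the tumor was NTC replicate 1. Among members, *Hif1a* was at 9.06 log2 CPM in that tumor against 8.66 to 8.7 in the other 4 NTC tumors, *Egln3* at 5.29 against 2.06 to 2.5, and *Plod1* at 7.27 against 7.49 to 7.57. Among scores, the oxygen sensing score (*Egln1* and *Egln3*) was 6.34 against 4.76 to 5.09, the melanoma cell score was 9.83 against 10.6 to 10.7, and the HIF target score minus the melanoma cell score was -3.59 against -5.14 to -4.73. Among library measures, counts on genes were 11896643 against 24145795 to 28682130, and genes with a count were 33193 against 22192 to 23831.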

How the results depend on the processing

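Of 644 alternative values for the log2 fold changes of the members, 610 kept direction and side of the threshold, 7 passed it where the main value did not, and 27 changed sign. With the leukocyte covariate *Hif1a* was -0.0613, *Kdm4b* 0.16, *Pfkfb3* -0.32 and *Stc2* -0.11, with the melanoma covariate *Hif1a* was -0.0102 and *Lox* 0.41, with DESeq2 *Stc2* was -0.11, without a filter *Lox* was 0.11, and with DESeq2 without NTC replicate 1 *Egln3* was 0.45, *Car12* 0.35 and *Lox* 1.54. Leaving out single tumors gave -0.0397 to 0.0708 for *Hif1a*, -0.93 to 0.43 for *Egln3*, -0.87 to 0.33 for *Car12*, -0.36 to 1.52 for *Lox*, -0.0662 to 0.515 for *Pfkfb3* and -0.30 to 1.39 for *Stc2*.

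Members called numbered 0 in edgeR, 1 with the melanoma covariate and with DESeq2, and 5 with DESeq2 without NTC replicate 1 (chosen after the data were seen). Members lower at an unadjusted p under 0.05 numbered 8 to 18 with single tumors left out (all genes 3.57% to 8.1%), 8 being without NTC replicate 4 (3.62%). Members higher numbered 0 to 3 in that way (all genes 2.62% to 12%), 3 without a filter (2.81%), 2 with the melanoma covariate (7.69%) and 5 with DESeq2 without NTC replicate 1 (14.6%). Over all genes, those called higher and lower numbered 24 and 72 with DESeq2, 526 and 110 with DESeq2 without NTC replicate 1, 0 and 6 with at least 10 counts in every tumor, 5 and 8 with the leukocyte and 2 and 22 with the melanoma covariate, and 1 to 2 and 0 to 15 with single tumors left out. Those lower numbered 4 with robust dispersion and 4 without the fold threshold. The median over all genes was -0.16 without a filter.

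The HIF target score, a difference of -0.24 as a mean over members (-0.31 to -0.13 with single tumors left out), was -0.60 as a median over members and -0.72 as a mean z score and -0.14 after subtraction of the melanoma cell score (0.13 over 9 tumors), and the regulator score was -0.17 as a median. Counting 6-mer seed matches gave 14 members (41.2%) beside 27.4% of all tested genes. With the replicate block, 0 genes were called lower, 18 members were lower (all genes 5.24%) and 4 higher (5.05%) at an unadjusted p under 0.05, and *Lox* was 1.19. The deviations of same-numbered tumors correlated at 0.17, -0.29, 0.08, 0.63 and 0.21 for replicates 1 to 5. For replicates 1 and 4 the best-matching number was their own, and for the others it was not. So few values do not settle whether the numbers pair the tumors. The cause of these differences was not tested.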
